A study of Mus musculus with 14 samples.

Results

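The genes described here carry out glutamate uptake and the glutamine cycle of the cortex. They were the 9 genes Slc1a1, Slc1a2, Slc1a3, Glul, Glud1, Slc38a1, Slc38a2, Slc38a3 and Slc38a5, taken by symbol from a table of 32830 genes. RNA-seq was made from cerebral cortex of SW mice aged 14 days, all carrying Aldh1l1-GFP, a reporter in which the regulatory region of the astrocyte gene Aldh1l1 drives green fluorescent protein. Upper and deep cortical layers were microdissected, and each layer gave GFP-positive cells sorted by flow cytometry (astrocytes), GFP-negative cells of the same kind of sort (non-astrocytes) and whole layer tissue that was not sorted (bulk tissue). There were 3 libraries of upper layer astrocytes, 3 of deep layer astrocytes, 2 of upper layer non-astrocytes, 2 of deep layer non-astrocytes, 2 of upper layer bulk tissue and 2 of deep layer bulk tissue. Groups were read from the titles, since a second label calls the upper layer astrocytes and non-astrocytes bulk tissue. The labels do not say that the libraries of a group came from separate animals, and p-values therefore cover only the differences among these libraries, which may be technical.

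Glutamate released at synapses is cleared mainly by astrocytes, through the sodium-coupled carriers GLT-1 (Slc1a2) and GLAST (Slc1a3). Glutamine synthetase (Glul) turns it into glutamine, system N carriers (Slc38a3, Slc38a5) let glutamine out, and system A carriers (Slc38a1, Slc38a2) are known for taking it up into neurons, where glutamate is made from it again. Glutamate dehydrogenase (Glud1) instead feeds glutamate into the mitochondrial citric acid cycle, and EAAC1 (Slc1a1) is the glutamate carrier known from neurons.

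Levels are normalised read counts, that is, reads per gene divided by a size factor of the library, from 18226457 to 30316765 reads in genes per library. All 10 astrocyte markers were higher in astrocytes than in non-astrocytes, and the markers of neurons, oligodendrocytes, their precursors, microglia, endothelium, mural cells and meningeal fibroblasts were lower, without exception (limma, adjusted p below 0.05 for each). In non-astrocytes against bulk tissue, all 10 neuron and all 10 astrocyte markers were called lower. All 8 microglial, 8 endothelial, 7 mural and 5 meningeal fibroblast markers and 6 of 7 oligodendrocyte precursor markers were called higher. Of the 8 oligodendrocyte markers, 2 were higher and 2 lower. The summed mural markers reached 220274 to 295717 in non-astrocytes and 8448 to 10825 in bulk tissue. The summed neuron markers reached 5574 to 10701 in non-astrocytes, against 152010 to 203328 in bulk tissue, while the summed microglial markers reached 143934 to 211411 in non-astrocytes and 7010 to 8419 in bulk tissue. Upper layer non-astrocyte replicate 1 stood apart, with a read in 30333 genes against 23671 to 26356 in the other libraries. With that library left out, no member lost or changed its call in any comparison, except that Slc1a1 became called higher in non-astrocytes than in bulk tissue.

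The 9 genes lie on 7 chromosomes, and the 2 system A carrier genes are neighbours on the same strand of chromosome 15. In GENCODE M21 (GRCm38), Slc1a2 spans chr2:102658659-102790784 (+), Slc1a3 chr15:8634124-8710764 (-) and Slc1a1 chr19:28835049-28913960 (+). Glul spans chr1:153899944-153909723 (+) and Glud1 chr14:34310727-34345265 (+). Slc38a3 spans chr9:107650634-107669530 (-), Slc38a5 chrX:8271133-8280179 (+), Slc38a1 chr15:96571418-96642913 (-) and Slc38a2 chr15:96687392-96699730 (-). Exons of Slc1a2 overlap Gm13872, those of Slc1a1 overlap 4430402I18Rik and those of Glul overlap Mir8114 and Teddm2. The strand setting of the counting is not given in the sources used here, and reads from these overlaps are uncertain.

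Promoter sequences are shown for a pair of members high in astrocytes, Slc1a3 and Glul, and a pair low there, Slc1a1 and Slc38a2, because the members divide into these sides when astrocytes are set against the other fractions. Each is the 250 bases before the RefSeq start (GRCm38.p6), read along the gene's strand: chr15:8710808-8711057 (-) for Slc1a3, chr1:153899679-153899928 (+) for Glul, chr19:28834885-28835134 (+) for Slc1a1 and chr15:96699729-96699978 (-) for Slc38a2. Capitals mark every match, on both strands, to the CAAT box CCAAT, the GC box GGGCGG, the TATA box TATAAA, the cAMP response core TGACGT, the E box CACGTG or the NFI-type motif TTGGC, the first and last of which can overlap on opposite strands.
Slc1a3: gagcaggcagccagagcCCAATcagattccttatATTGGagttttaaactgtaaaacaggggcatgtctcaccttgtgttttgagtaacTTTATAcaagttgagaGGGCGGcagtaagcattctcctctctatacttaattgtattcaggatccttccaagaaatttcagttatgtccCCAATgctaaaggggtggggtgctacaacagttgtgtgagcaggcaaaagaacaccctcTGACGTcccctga
Glul: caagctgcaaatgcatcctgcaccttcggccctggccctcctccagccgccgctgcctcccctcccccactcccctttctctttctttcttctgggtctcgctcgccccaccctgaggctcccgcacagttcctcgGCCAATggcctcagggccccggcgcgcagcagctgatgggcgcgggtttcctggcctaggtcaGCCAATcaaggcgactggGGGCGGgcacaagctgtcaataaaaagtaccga
Slc1a1: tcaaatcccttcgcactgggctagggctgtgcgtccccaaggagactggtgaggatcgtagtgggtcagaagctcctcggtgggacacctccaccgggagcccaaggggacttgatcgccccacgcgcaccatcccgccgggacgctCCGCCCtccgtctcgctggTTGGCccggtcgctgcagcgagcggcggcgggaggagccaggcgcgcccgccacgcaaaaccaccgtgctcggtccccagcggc
Slc38a2: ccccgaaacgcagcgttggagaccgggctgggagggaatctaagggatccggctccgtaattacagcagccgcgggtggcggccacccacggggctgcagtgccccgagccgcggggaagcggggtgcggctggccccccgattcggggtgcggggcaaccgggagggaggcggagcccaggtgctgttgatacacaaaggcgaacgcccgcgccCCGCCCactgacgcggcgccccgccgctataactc

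The Slc1a3 window had 44.8% G and C and 2 CpG, with 3 matches to the CAAT box, 1 to the GC box, 1 to the TATA box and 1 to the cAMP response core. The Glul window had 64.8% G and C and 15 CpG, with 2 matches to the CAAT box, both overlapping the NFI-type motif, and 1 to the GC box. The Slc1a1 window had 70.4% G and C, 27 CpG and 1 match each to the GC box and the NFI-type motif. The Slc38a2 window had 72% G and C, 30 CpG and 1 match to the GC box, and that of Glud1, which is not printed, had 82% G and C, 46 CpG and 3 matches to the GC box. The 32851 RefSeq windows of this length had a median of 52.4% G and C and 6 CpG. Of these windows, 33.8% held the CAAT box, 32.7% the GC box, 12.4% the TATA box, 6.47% the cAMP response core, 6.02% the E box and 41.5% the NFI-type motif. Of these 5 members, Slc1a3 was the only one with a window below both medians. A match describes letters and does not show a binding site.

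Between fractions, all 9 genes passed the test in astrocytes against either of the other fractions. Slc1a2, Slc1a3, Glul, Glud1 and Slc38a3 were higher in astrocytes than in non-astrocytes, and Slc1a1, Slc38a1, Slc38a2 and Slc38a5 were lower. The same 5 genes were higher and the same 4 lower in astrocytes than in bulk tissue. Calls were common in general: of the 22575 genes tested, 66.3% were called between astrocytes and non-astrocytes (29.6% higher, 36.8% lower) and 64.8% between astrocytes and bulk tissue (28.8% higher, 36.1% lower). Under scaling by library totals the share of calls that were higher was 35.8% in place of 44.6% against non-astrocytes and 52.1% in place of 44.4% against bulk tissue, with the members called the same way. The median log2 difference of the 9 genes was 2.20 against non-astrocytes, beside -0.08 over all genes, and 1.90 against bulk tissue, beside -0.10 over all genes. With 5 genes higher and 4 lower, these medians are the smallest of the 5 higher values (Glul, then Glud1). They do not show a shift of the whole set. The comparisons share the astrocyte libraries. In bulk tissue, fewer cells of a type and less RNA per cell cannot be told apart. Together the 9 genes took 4.42% to 5.21% of the reads in genes of astrocyte libraries, 0.330% to 0.373% in non-astrocytes and 0.814% to 0.946% in bulk tissue.

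**Figure D1:**
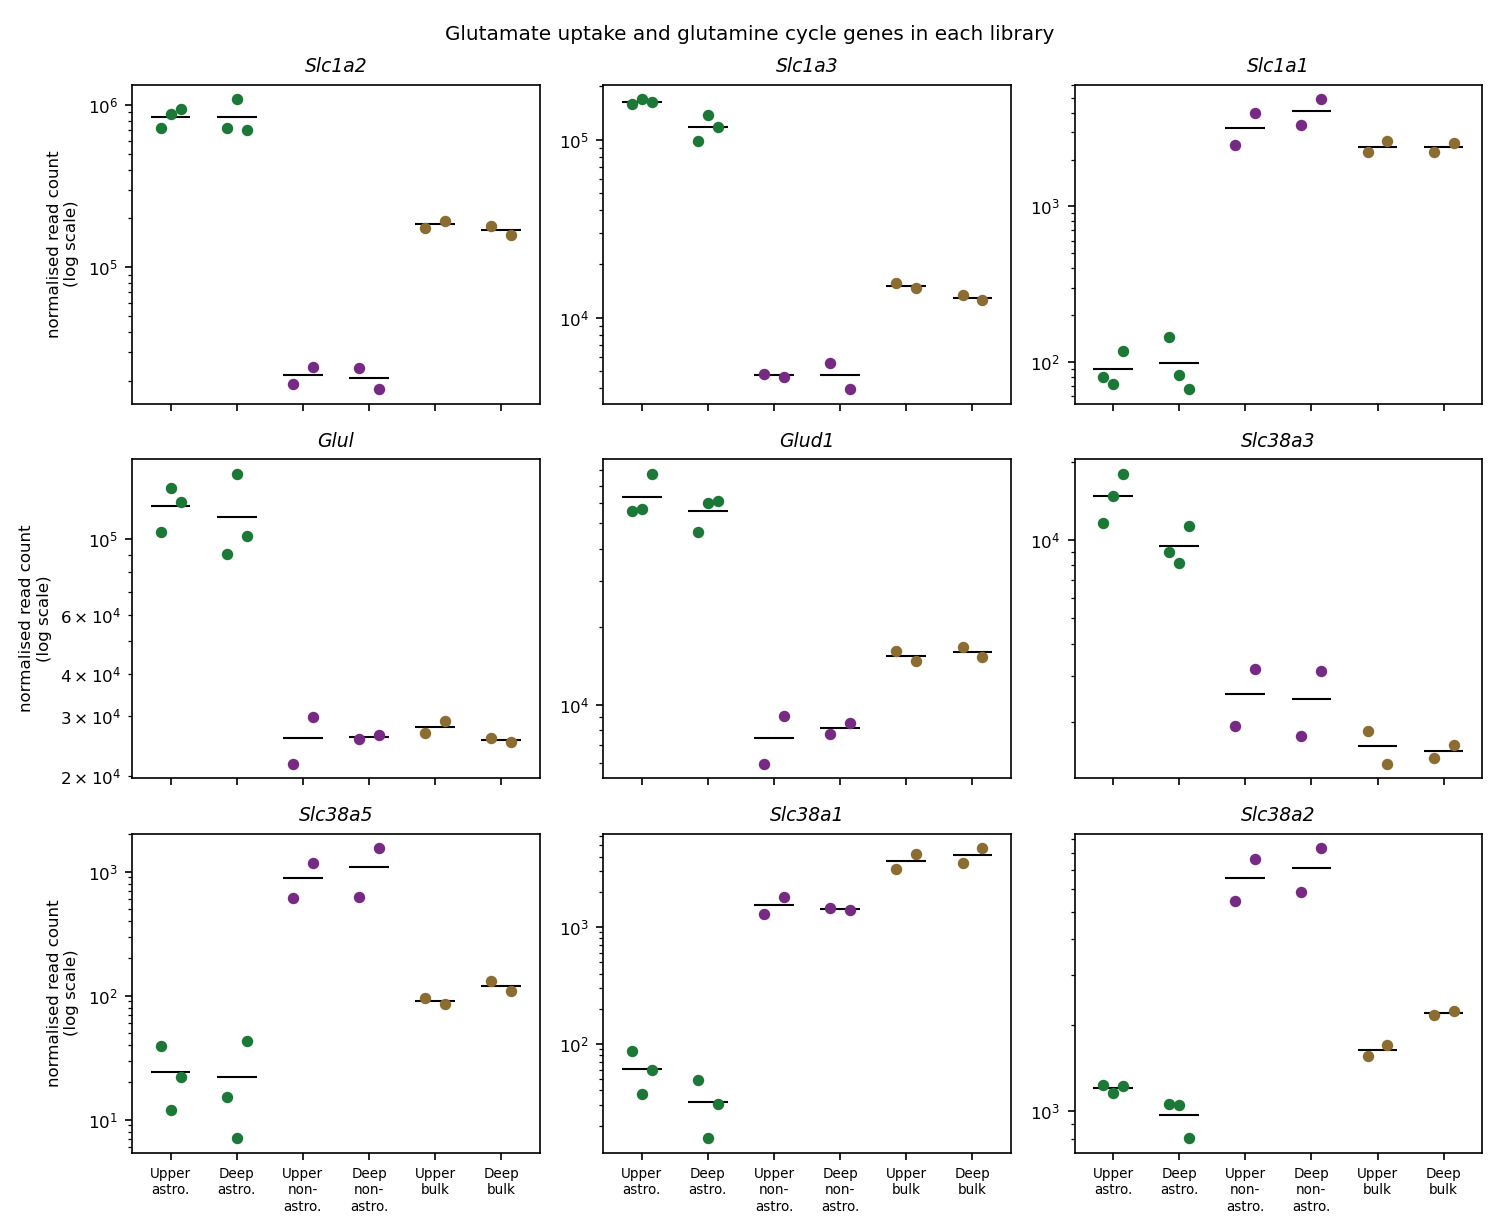
Normalised read count (log axis) of each of the 9 genes in each library, in 1 panel per gene, where points are libraries, in replicate order from left to right, and horizontal lines are group means of 3 astrocyte, 2 non-astrocyte and 2 bulk tissue libraries per layer. Slc1a2, Slc1a3, Glul, Glud1 and Slc38a3 lie highest in astrocytes, and the other 4 genes lowest.

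Slc1a2 was the most abundant of the 9 genes in astrocytes. It had 719048, 881267 and 948274 normalised read counts in upper layer astrocytes and 723785, 1089589 and 706072 in deep layer astrocytes. In non-astrocytes it had 19164 and 24329 in the upper layers and 23920 and 17707 in the deep layers, and in bulk tissue 175553 and 193281 in the upper layers and 180610 and 158352 in the deep layers. The lowest astrocyte library lay above every bulk library, and every bulk library above every non-astrocyte library. The mean was 844673 ± 155988 in astrocytes (SD, n = 6), against 21280 ± 3342 in non-astrocytes (SD, n = 4), a 39.5-fold difference (log2 5.30, limma, adjusted p = 7.83e-13). Against bulk tissue, with a mean of 176949 ± 14467 (SD, n = 4), astrocytes were 4.72-fold higher (log2 2.24, limma, adjusted p = 1.15e-08). Slc1a2 alone took 3.12% to 3.81% of the reads in genes of astrocyte libraries, 0.0768% to 0.113% in non-astrocytes and 0.579% to 0.698% in bulk tissue.

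Slc1a3 separated astrocytes from bulk tissue more widely than Slc1a2 did. Its normalised read count was 158215, 169153 and 162014 in upper layer astrocytes and 98787, 137648 and 118206 in deep layer astrocytes. It was 4792 and 4659 in upper layer and 5525 and 3960 in deep layer non-astrocytes, and 15645 and 14569 in upper layer and 13382 and 12488 in deep layer bulk tissue. No library of one fraction reached the range of another. The mean was 140671 ± 27722 in astrocytes (SD, n = 6), 4734 ± 641 in non-astrocytes and 14021 ± 1378 in bulk tissue (SD, n = 4 each). Astrocytes were 29.4-fold above non-astrocytes (log2 4.88, limma, adjusted p = 2.03e-13) and 9.89-fold above bulk tissue (log2 3.31, limma, adjusted p = 6.39e-12).

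The third glutamate carrier, Slc1a1, ran the other way. It had 79.2, 71.9 and 116.8 normalised read counts in upper layer astrocytes and 145.2, 82.3 and 66.6 in deep layer astrocytes. It had 2470 and 3965 in upper layer and 3327 and 4911 in deep layer non-astrocytes, and 2227 and 2618 in upper layer and 2245 and 2561 in deep layer bulk tissue. The astrocyte libraries were far below all others, while non-astrocytes and bulk tissue overlapped. The mean was 93.7 ± 30.8 in astrocytes (SD, n = 6), 3668 ± 1030 in non-astrocytes and 2413 ± 205 in bulk tissue (SD, n = 4 each). Astrocytes were 39.1-fold below non-astrocytes (log2 -5.29, limma, adjusted p = 1.31e-11) and 26.5-fold below bulk tissue (log2 -4.73, limma, adjusted p = 4.51e-11).

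Glul, the glutamine synthetase gene, was higher in astrocytes than in either of the other fractions. It had 105289, 142105 and 128774 normalised read counts in upper layer astrocytes and 90452, 156553 and 102270 in deep layer astrocytes. It had 21747 and 29910 in upper layer and 25745 and 26483 in deep layer non-astrocytes, and 26756 and 29082 in upper layer and 25863 and 25169 in deep layer bulk tissue. The non-astrocyte and bulk libraries lay in the same range, below all astrocyte libraries. The mean was 120907 ± 25693 in astrocytes (SD, n = 6), against 25971 ± 3350 in non-astrocytes (SD, n = 4), a 4.60-fold difference (log2 2.20, limma, adjusted p = 9.62e-09). Astrocytes were 4.45-fold above bulk tissue, which averaged 26718 ± 1705 (SD, n = 4; log2 2.15, limma, adjusted p = 1.28e-08).

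Glud1 was likewise highest in astrocytes. Its normalised read count was 55743, 56878 and 77822 in upper layer and 46329, 59867 and 61140 in deep layer astrocytes. It was 5952 and 9049 in upper layer and 7740 and 8535 in deep layer non-astrocytes, and 16182 and 14763 in upper layer and 16728 and 15379 in deep layer bulk tissue. The 3 fractions did not overlap, with bulk tissue in the middle. Astrocytes averaged 59630 ± 10324 (SD, n = 6), non-astrocytes 7819 ± 1356 and bulk tissue 15763 ± 866 (SD, n = 4 each). The difference was 7.63-fold against non-astrocytes (log2 2.93, limma, adjusted p = 1.29e-10) and 3.74-fold against bulk tissue (log2 1.90, limma, adjusted p = 1.99e-08).

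The system N carriers, a class known for glutamine exit from astrocytes, differed from each other in where they were high. Slc38a3 had 11648, 14765 and 17995 normalised read counts in upper layer and 9023, 8160 and 11359 in deep layer astrocytes. It had 1938 and 3204 in upper layer and 1767 and 3140 in deep layer non-astrocytes, and 1848 and 1385 in upper layer and 1454 and 1639 in deep layer bulk tissue. Every astrocyte library lay above all others. Astrocytes averaged 12158 ± 3677 (SD, n = 6), non-astrocytes 2512 ± 765 and bulk tissue 1582 ± 207 (SD, n = 4 each). Astrocytes were 4.83-fold above non-astrocytes (log2 2.27, limma, adjusted p = 4.77e-08) and 7.45-fold above bulk tissue (log2 2.90, limma, adjusted p = 2.82e-09).

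Slc38a5 was highest in non-astrocytes. It had 39.1, 11.99 and 22.0 normalised read counts in upper layer and 15.3, 7.09 and 43.4 in deep layer astrocytes. It had 616 and 1169 in upper layer and 626 and 1550 in deep layer non-astrocytes, and 95.8 and 85.1 in upper layer and 130.4 and 109.0 in deep layer bulk tissue. The 3 fractions did not overlap. Astrocytes averaged 23.2 ± 14.9 (SD, n = 6), non-astrocytes 990.3 ± 454 and bulk tissue 105.1 ± 19.5 (SD, n = 4 each). Astrocytes were 45.0-fold below non-astrocytes (log2 -5.49, limma, adjusted p = 3.19e-08) and 5.16-fold below bulk tissue (log2 -2.37, limma, adjusted p = 0.000221).

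The system A carriers Slc38a1 and Slc38a2, known for glutamine uptake, were both low in astrocytes, and they ranked the other fractions differently. Slc38a1 had 86.9, 37.1 and 59.5 normalised read counts in upper layer and 49.6, 15.6 and 30.7 in deep layer astrocytes. It had 1284 and 1811 in upper layer and 1453 and 1391 in deep layer non-astrocytes, and 3162 and 4232 in upper layer and 3543 and 4733 in deep layer bulk tissue. Bulk tissue was thus highest and astrocytes lowest, with no overlap. Astrocytes averaged 46.5 ± 24.9 (SD, n = 6), non-astrocytes 1485 ± 228 and bulk tissue 3918 ± 701 (SD, n = 4 each). Astrocytes were 35.2-fold below non-astrocytes (log2 -5.14, limma, adjusted p = 4.16e-10) and 92.5-fold below bulk tissue (log2 -6.53, limma, adjusted p = 2.70e-11).

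Slc38a2 was present at a moderate level in astrocytes, with 1241, 1159 and 1232 normalised read counts in the upper layers and 1059, 1057 and 806 in the deep layers. It had 5471 and 7653 in upper layer and 5861 and 8351 in deep layer non-astrocytes, and 1568 and 1706 in upper layer and 2178 and 2238 in deep layer bulk tissue. Non-astrocytes were highest here, and the fractions did not overlap. Astrocytes averaged 1092 ± 162 (SD, n = 6), non-astrocytes 6834 ± 1388 and bulk tissue 1923 ± 336 (SD, n = 4 each). Astrocytes were 6.22-fold below non-astrocytes (log2 -2.64, limma, adjusted p = 1.50e-10) and 1.76-fold below bulk tissue (log2 -0.81, limma, adjusted p = 7.86e-05).

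In non-astrocytes against bulk tissue, 3 of the 9 genes were called higher and 4 lower, beside 61.6% of all genes called (30.5% higher, 31.1% lower). Slc38a5 was 8.74-fold higher in non-astrocytes (log2 3.13, limma, adjusted p = 4.47e-05), Slc38a2 3.54-fold (log2 1.82, limma, adjusted p = 4.68e-08) and Slc38a3 1.54-fold (log2 0.62, limma, adjusted p = 0.0178), the last with libraries of the 2 fractions that overlapped. Slc1a2 was 8.37-fold lower (log2 -3.07, limma, adjusted p = 1.53e-09), Slc1a3 2.97-fold (log2 -1.57, limma, adjusted p = 1.41e-07), Slc38a1 2.63-fold (log2 -1.39, limma, adjusted p = 0.00108) and Glud1 2.04-fold (log2 -1.03, limma, adjusted p = 5.72e-05). The other 2 did not pass. Slc1a1 had a log2 difference of 0.56 (95% interval 0.05 to 1.08, limma, adjusted p = 0.0538) and Glul one of -0.05 (95% interval -0.43 to 0.33, limma, adjusted p = 0.831). Scaling by library totals moved the median of all genes in this comparison to 0.33, from -0.04, and raised the share of calls that were higher to 64.5% from 49.5%. Under it Glul stood at 0.32 (limma, adjusted p = 0.0179), and Slc1a1 was called with a log2 difference of 0.94 (limma, adjusted p = 0.00409). Slc1a1 also passed with edgeR (log2 0.57, adjusted p = 0.0256), with DESeq2 (log2 0.59, adjusted p = 0.0228), with limma on only the groups compared (log2 0.56, adjusted p = 0.0118), at a pseudocount of 10 (limma, adjusted p = 0.0382) and in 5 of 14 fits without 1 library. The Slc38a3 call was lost when upper layer non-astrocyte replicate 2, deep layer non-astrocyte replicate 2, upper layer bulk tissue replicate 2 or deep layer bulk tissue replicate 1 was left out (limma, adjusted p = 0.0988, 0.106, 0.0795 and 0.0584 in that order).

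**Figure D2:**
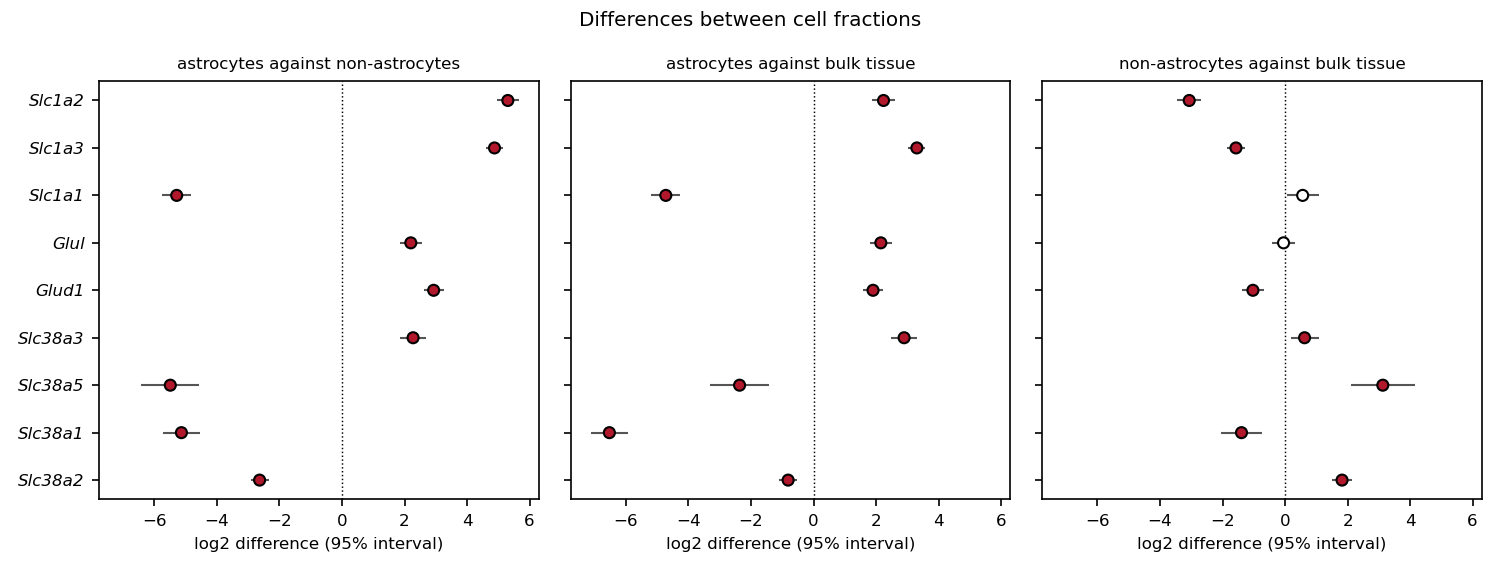
Log2 difference of each of the 9 genes between fractions, with 95% intervals from limma, in 3 panels (astrocytes over non-astrocytes, astrocytes over bulk tissue, non-astrocytes over bulk tissue), where filled points have an adjusted p below 0.05. In the panels for astrocytes, 5 genes lie right of 0 and 4 left of it, and in the third panel Slc1a1 and Glul are open.

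Markers of the other cell types moved along with these differences, and their part was not tested. The summed astrocyte markers ran from 212765 to 293446 in astrocytes, 4924 to 6956 in non-astrocytes and 37376 to 40411 in bulk tissue. Non-astrocytes thus held 2.51% of the astrocyte level of this sum, with single markers between 1.45% and 26.8%. The highest was S100b, and the next highest was Gfap at 3.69%. The corresponding values were 2.52% for Slc1a2 and 3.37% for Slc1a3, close to the marker sum, and 13.1% for Glud1, 20.7% for Slc38a3 and 21.5% for Glul, above it. Conversely, astrocytes held 2.34% of the non-astrocyte level of Slc38a5, 2.55% of Slc1a1, 3.13% of Slc38a1 and 16.0% of Slc38a2. The same share was 2.20% for the sum of 8 endothelial markers, 2.05% for 7 mural markers, 1.14% for 8 microglial markers and 8.45% for 10 neuron markers. It was 2.10% for 5 meningeal fibroblast markers, 5.16% for 7 oligodendrocyte precursor markers and 5.29% for 8 oligodendrocyte markers. Of the bulk level, astrocytes held 0.388% of the neuron sum, against 1.19% of Slc38a1 and 3.88% of Slc1a1. The 8 dissociation stress genes summed to 2560 to 3550 in astrocytes, 28175 to 48838 in non-astrocytes and 19018 to 31806 in bulk tissue. The bulk sum was mostly Egr1, an immediate early gene that neural activity also induces, with 16408 to 29078 in bulk tissue. Of the 8 genes, 2 were higher and 3 lower in astrocytes than in bulk tissue (median log2 difference 0.02). All 8 were lower in astrocytes than in non-astrocytes (median log2 difference -4.17). In non-astrocytes against bulk tissue, 6 were higher and 1 lower (median log2 difference 2.36). None of the 71 markers was at 0 in all libraries of a fraction.

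To compare levels between genes, the normalised read count was divided by the length of the union of a gene's exons. In astrocytes the level per kilobase ran in the order Slc1a2 (64317), Glul (36385), Slc1a3 (16478), Glud1 (14164), Slc38a3 (2304), Slc38a2 (123.6), Slc1a1 (11.3), Slc38a5 (10.3) and Slc38a1 (2.70). The libraries of Slc1a3 overlapped those of Glud1, and Slc38a5 overlapped both of its neighbours, so those places were not separated beyond their spread. In non-astrocytes Glul led (7816 per kilobase), followed by Glud1 (1857) and Slc1a2 (1620), whose libraries overlapped. Then came Slc38a2 (773), Slc1a3 (555), Slc38a3 (476), Slc1a1 (444) and Slc38a5 (442), each overlapping the next, and Slc38a1 (86.2), which stood below them. In bulk tissue the order was Slc1a2 (13474), Glul (8040), Glud1 (3744) and Slc1a3 (1642), without overlap. Below these, Slc38a3 (299.7), Slc1a1 (292), Slc38a1 (227) and Slc38a2 (218) overlapped in a chain, and Slc38a5 was lowest (46.9). Dividing by the longest transcript instead kept the order in astrocytes, set Slc1a1 above Slc38a3 in non-astrocytes, and set Slc1a1 and Slc38a1 above Slc38a3 in bulk tissue.

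The ratio of Slc1a2 to Slc1a3 reads within a library does not depend on the size factor. It was 4.54, 5.21 and 5.85 in upper layer astrocytes and 7.33, 7.92 and 5.97 in deep layer astrocytes. It was 3.999 and 5.22 in upper layer and 4.33 and 4.47 in deep layer non-astrocytes, and 11.2 and 13.3 in upper layer and 13.5 and 12.7 in deep layer bulk tissue. Bulk tissue had the highest ratio without overlap, and the ranges of astrocytes and non-astrocytes overlapped. Astrocytes averaged 6.14 ± 1.27 (SD, n = 6), against 12.7 ± 1.02 in bulk tissue (SD, n = 4), a log2 difference of -1.07 (exact permutation test, two-sided, p = 0.00476, the smallest that 210 arrangements allow, and 0.0143 after Benjamini-Hochberg adjustment over 3 comparisons). Against non-astrocytes, with 4.51 ± 0.517 (SD, n = 4), the log2 difference was 0.43 and did not pass after adjustment (exact permutation test, two-sided, p = 0.0381, adjusted p = 0.0571). Upper layer astrocytes averaged 5.20 ± 0.654 and deep layer astrocytes 7.07 ± 0.996 (SD, n = 3 each), a log2 difference of -0.44. The 3 upper libraries all lay below the 3 deep ones, and p = 0.1 is the smallest that the 20 arrangements of an exact two-sided permutation test can give. The ratio tests between fractions pooled the layers and took every library as independent. Upper and deep libraries of the same replicate number were alike, so those p-values may be too small.

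**Figure D3:**
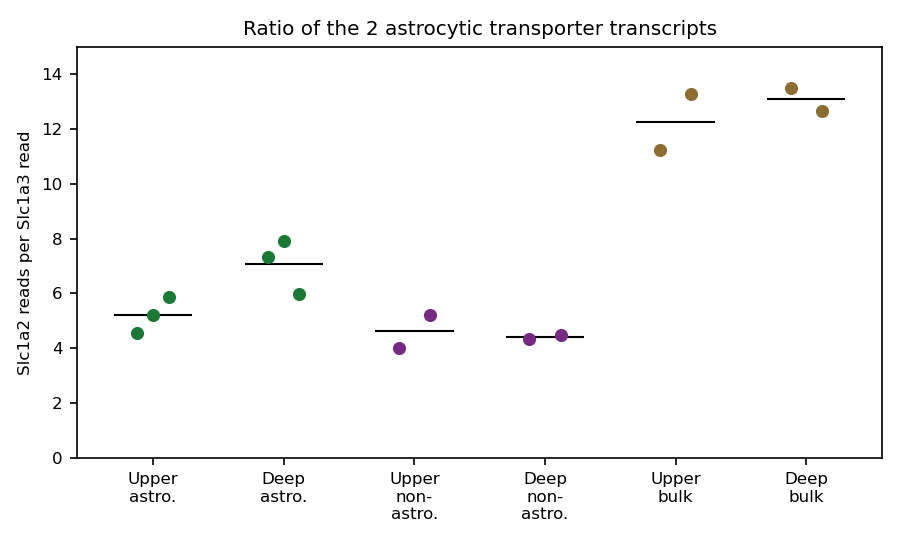
Slc1a2 reads per Slc1a3 read in each of the 14 libraries, by group, with lines at the group means and a vertical axis that starts at 0. Bulk tissue lies between 11.2 and 13.5, and every sorted library lies between 3.999 and 7.92.

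Between upper and deep layers, none of the 9 genes was called within any fraction. In astrocytes 18 genes of all those tested were called (0.0797%), of which 0.0399% were higher and 0.0399% lower in the upper layers. In non-astrocytes 1 was called, as higher (0.00443%), and in bulk tissue 103 (0.456%), with 0.159% higher and 0.297% lower. Neither edgeR nor DESeq2 called a member. At an unadjusted p below 0.05, limma gave 3 members in astrocytes (beside 10.3% of all genes), 0 in non-astrocytes (3.86%) and 0 in bulk tissue (7.26%). The median log2 difference of the members in astrocytes was 0.32, beside 0.01 over all genes.

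The 3 members of astrocytes were the uptake carrier Slc1a3 and the glutamine carriers Slc38a3 and Slc38a1. Slc1a3 averaged 163127 ± 5553 in upper and 118214 ± 19430 in deep layer astrocytes (SD, n = 3 each), and its 3 upper libraries lay above its 3 deep ones. Its log2 difference was 0.48 (95% interval 0.13 to 0.82, limma, adjusted p = 0.380). Slc38a3 averaged 14803 ± 3174 in upper and 9514 ± 1655 in deep layer astrocytes (SD, n = 3 each), also without overlap (log2 0.63, 95% interval 0.11 to 1.15, limma, adjusted p = 0.429). Slc38a1 averaged 61.2 ± 24.96 in upper and 31.9 ± 17.0 in deep layer astrocytes (SD, n = 3 each), with overlap (log2 0.98, 95% interval 0.22 to 1.73, limma, adjusted p = 0.401). Slc38a1 was low in these cells, with 15.6 to 86.9 normalised read counts in astrocyte libraries, so its values rest on few reads. With a replicate block within each fraction, Slc38a1 passed (limma, adjusted p = 0.0251), and 188 genes were called in place of 18.

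The other 6 members differed less between astrocyte layers. Slc38a2 had a log2 difference of 0.32 (95% interval -0.04 to 0.69), and its 3 upper libraries lay above the 3 deep ones. Slc1a2 had one of 0.04 (95% interval -0.41 to 0.49), Glul 0.14 (95% interval -0.30 to 0.57) and Glud1 0.18 (95% interval -0.22 to 0.58). Slc38a5, at 0.34 (95% interval -0.83 to 1.52), and Slc1a1, at -0.09 (95% interval -0.68 to 0.51), were low in these cells and their intervals wide. In all, 3 members had upper libraries entirely above the deep ones and 0 entirely below, beside 8.7% and 7.31% of all genes.

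In bulk tissue, the upper libraries of Slc1a3 and Glul lay above the deep ones, and those of Slc38a2 and Slc38a5 below, beside 22.4% and 21.3% of all genes. Slc38a2 averaged 1637 ± 97.7 in upper and 2208 ± 42.6 in deep layer bulk tissue (SD, n = 2 each), a log2 difference of -0.43 (95% interval -0.88 to 0.01, limma, adjusted p = 0.723). In non-astrocytes no member had layers without overlap, beside 11.8% of all genes above and 13.7% below, and the log2 differences ran from -0.37 (Slc1a1) to 0.10 (Slc38a1). The layer difference of Slc38a2 in astrocytes minus that in bulk tissue was 0.76 (95% interval 0.18 to 1.34, limma, adjusted p = 0.435). No member passed in this test, where 0.137% of all genes were called (0.0797% higher, 0.0576% lower) and 1 member had an unadjusted p below 0.05 (beside 8.03% of all genes). None passed for astrocytes minus non-astrocytes either, where 0.00443% of all genes were called and 0 members had an unadjusted p below 0.05 (beside 5.98%). In that test Slc1a3 had a value of 0.46 (95% interval -0.09 to 1.01, limma, adjusted p = 0.801).

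Oligodendrocyte markers had higher sums in the deep layers of non-astrocytes and bulk tissue, while the ranges overlapped in astrocytes. Their part in the member values was not tested. Their sum was 3728 to 4935 in upper and 4913 to 6109 in deep layer astrocytes, 51017 to 58995 in upper and 108782 to 147543 in deep layer non-astrocytes, and 38168 to 41826 in upper and 126979 to 149773 in deep layer bulk tissue. Of the 8 markers, 1 was called lower in upper layer astrocytes (Mbp, a myelin protein gene), 0 in non-astrocytes and 3 in upper layer bulk tissue, and the median log2 differences were -0.93, -1.40 and -1.86 for these fractions (limma). The summed dissociation stress genes were 3359 to 3550 in upper and 2560 to 2797 in deep layer astrocytes. They were 38317 to 48838 in upper and 28175 to 41663 in deep layer non-astrocytes, with overlap. In bulk tissue they were 29883 to 31806 in the upper and 19018 to 19694 in the deep layers. No gene of that list was called between layers in any fraction. None of the other marker lists had a gene called between layers.

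**Figure D4:**
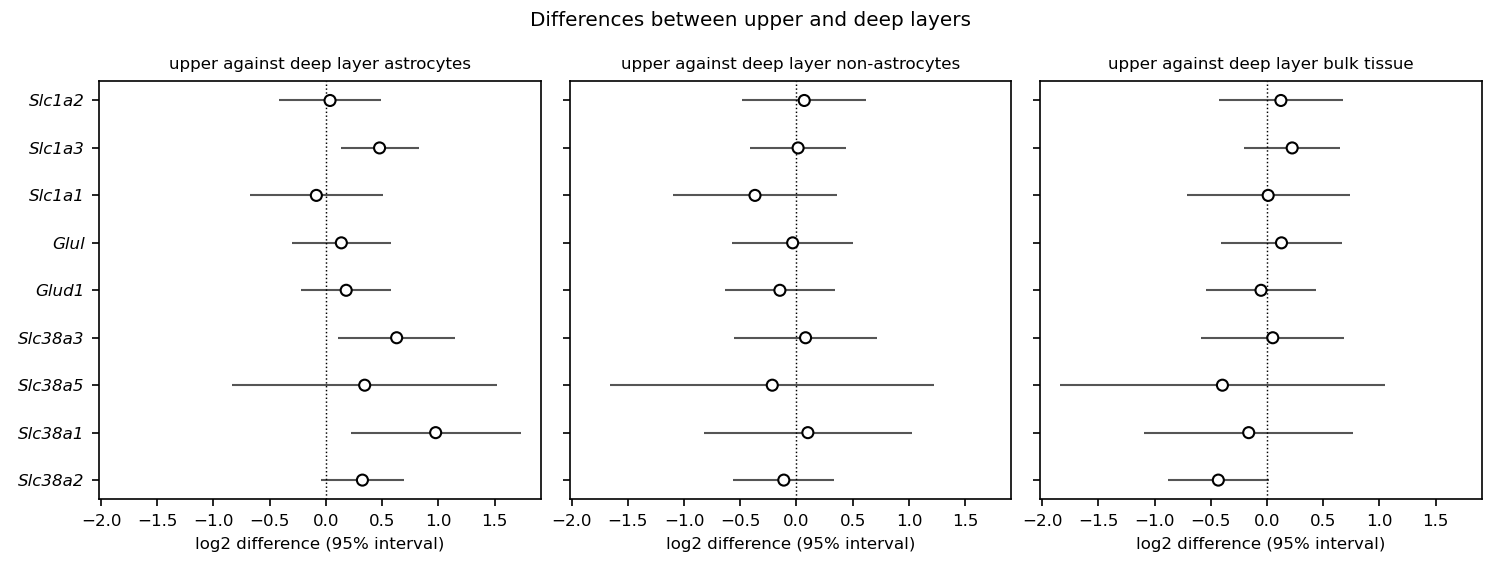
Log2 difference, upper over deep layers, of each of the 9 genes within each fraction, with 95% intervals from limma, where all points are open since no adjusted p was below 0.05. In astrocytes the intervals of Slc1a3, Slc38a3 and Slc38a1 lie above 0.

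Of 39 other genes of glutamate and glutamine handling, in 5 lists, 38 were tested, since Slc38a8 was under the filter on low values. In astrocytes against non-astrocytes 13 were called higher and 15 lower, with a median log2 difference of 0.08. These were 34.2% and 39.5% of the genes tested, beside 29.6% and 36.8% of all genes, shares near that background. Among the higher ones with the largest differences were the mitochondrial glutamate carrier Slc25a18 (log2 5.02, 3189 ± 474 in astrocytes against 96.3 ± 5.41 in non-astrocytes), the proline dehydrogenase Prodh (log2 4.49) and the alanine aminotransferases Gpt (log2 4.39) and Gpt2 (log2 2.23). The serine carrier Slc1a4 (log2 3.07) and the cystine-glutamate exchanger Slc7a11 (log2 2.44) were higher too. The lower ones were led by the neutral amino acid exchanger Slc7a8 (log2 -5.83, 81.6 ± 10.1 in astrocytes against 4765 ± 1135 in non-astrocytes), the vesicular glutamate transporter Slc17a7 (log2 -5.24), the glutamine-using asparagine synthetase Asns (log2 -4.43) and Slc38a11 (log2 -3.42). The vesicular glutamate transporter Slc17a6 and the carrier Slc38a4 had no read in any astrocyte library. Against a floor of 3 reads per library, Slc17a6 was at least 11.8-fold lower in astrocytes than in non-astrocytes and Slc38a4 at least 7.24-fold (limma, adjusted p below 0.05 for every gene named as higher or lower).

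By list, the enzymes had 8 of 15 genes higher and 4 lower in astrocytes than in non-astrocytes, the glutamate and neutral amino acid carriers 3 of 9 higher and 4 lower, and the mitochondrial carriers 2 of 5 higher and 1 lower. None of the 6 tested SLC38 relatives was higher and 4 were lower, and of the 3 vesicular transporters none was higher and 2 were lower. These lists are short, the shares over all genes were 29.6% higher and 36.8% lower, and no test was made of a list.

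Against bulk tissue, 15 of the 38 were higher in astrocytes and 17 lower, with a median log2 difference of -0.28, which is 39.5% and 44.7% of them beside 28.8% and 36.1% of all genes. The higher ones were led by Slc1a4 (log2 3.32), Prodh (log2 3.04), the glutamine carrier Slc1a5 (log2 2.51), Slc25a18 (log2 2.49), Slc7a11 (log2 2.37) and Aldh4a1 (log2 2.05), which acts after Prodh in turning proline to glutamate. The lower ones were led by Slc17a7 (log2 -10.50), Asns (log2 -6.92), the GABA-making enzyme Gad1 (log2 -5.996), Slc7a8 (log2 -4.71) and Gls2 (log2 -4.49), while Slc17a6 was at least 155-fold lower. Slc17a7 and Gad1 also stand in the neuron marker list, whose 10 genes were all lower in astrocytes than in bulk tissue. In non-astrocytes against bulk tissue, 8 were higher and 14 lower, or 21.1% and 36.8%, beside 30.5% and 31.1% of all genes. The amino acid carriers Slc38a11 (log2 3.12), Slc7a5 (log2 2.93), Slc1a5 (log2 2.16), Slc7a8 (log2 1.12), the heavy chain Slc3a2 (log2 1.13), which pairs with SLC7 carriers such as Slc7a5 and Slc7a8, and the aspartate-glutamate carrier Slc25a13 (log2 1.45) were the higher genes named by the rule. Slc17a7 (log2 -5.27), Gad1 (log2 -4.25), Gad2 (log2 -3.98), Slc17a6 (log2 -3.68), Gls2 (log2 -3.60) and the mitochondrial glutamate carrier Slc25a22 (log2 -3.51) were the lower ones (limma, adjusted p below 0.05 for each gene named in this paragraph). Between layers, 0 of the 38 were called in any fraction.

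**Figure D5:**
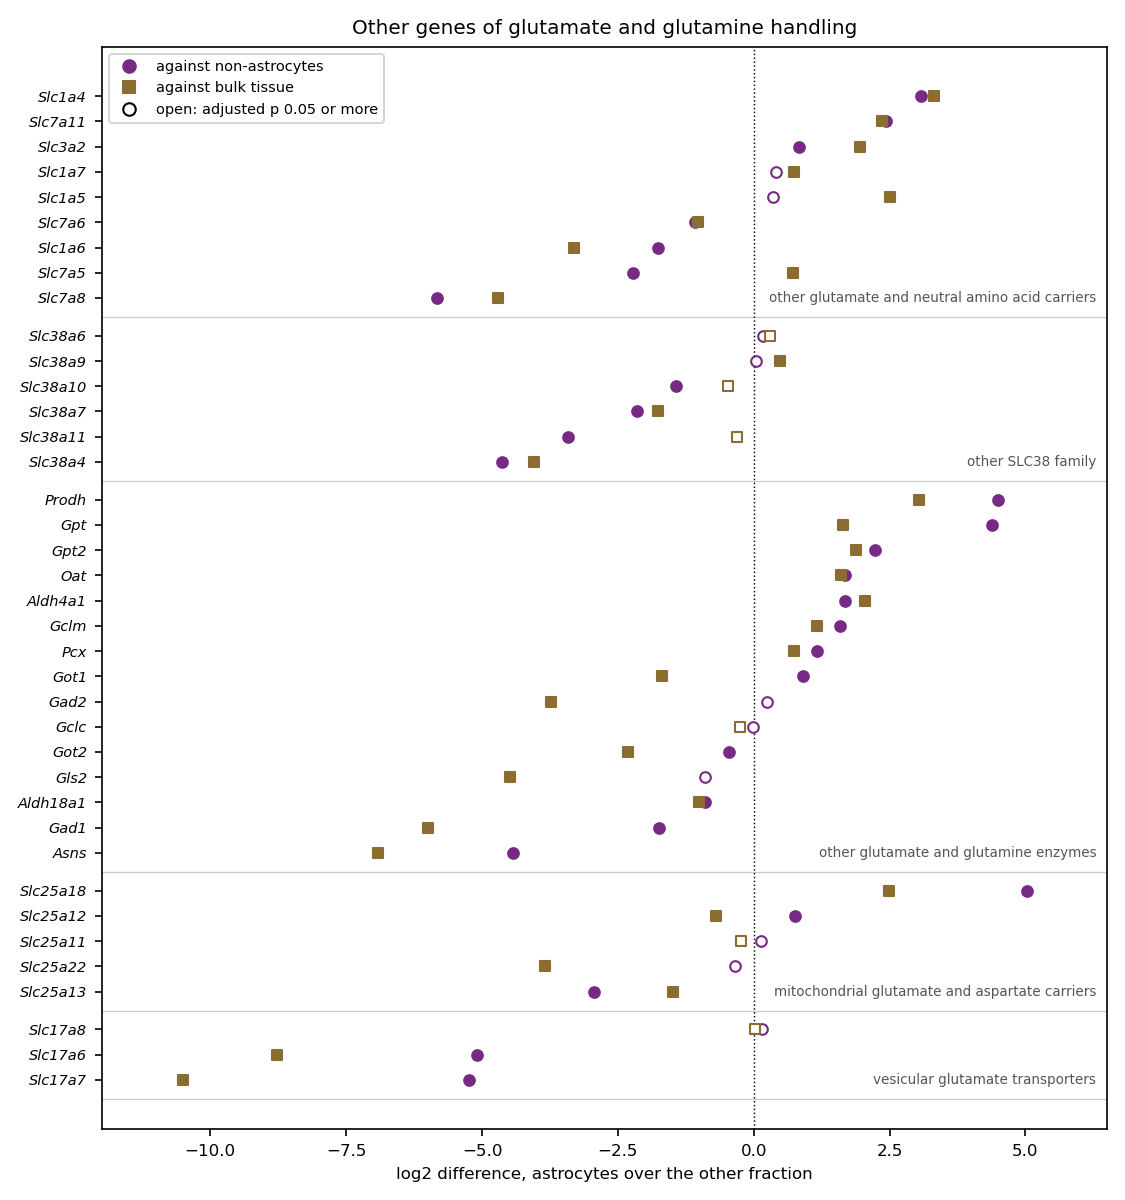
Log2 difference of 38 other genes of glutamate and glutamine handling in astrocytes over non-astrocytes (circles) and in astrocytes over bulk tissue (squares), by list, with open symbols for an adjusted p of 0.05 or more and with Slc17a6 and Slc38a4, at 0 in astrocytes, at their fitted values. Slc25a18, Prodh and Gpt lie farthest right of the circles, and Slc17a7 lies farthest left of the squares.

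The genes whose log2 levels over the 14 libraries were most like each member were found among 11872 genes, and are a description, since all points share the 3 fractions. Slc1a2 was most like Acsl6 (Pearson r = 0.998), Ntrk2 (0.997) and Spire1 (0.996), and Slc1a3 was most like AI464131 (0.997), Fgfr3 (0.996) and Fabp5 (0.996). For Glul these were Tril (0.995), Oat (0.994) and Pts (0.993), and Oat, ornithine aminotransferase, is itself an enzyme of the lists above. For Glud1 they were Car8 (0.996), Nr2e1 (0.994) and Dbi (0.994), and for Slc38a3 Mfge8 (0.994), Cdc42ep4 (0.990) and Pomt2 (0.989). Among the genes low in astrocytes, Slc38a5 was most like Esyt1 (0.990), the apelin receptor Aplnr (0.990) and Trim16 (0.986). Slc38a2 was most like Lsr (0.990), Tie1, a receptor known from endothelium (0.989), and Gng11 (0.989). Slc38a1 was most like Ppm1h (0.996), Clmp (0.994) and Tspan17 (0.992), and Slc1a1 was most like Rybp, Tmem108 and Dock9 (0.994 each). Among the members, r ran from 0.712 to 0.987 within the 5 genes high in astrocytes, from 0.644 to 0.949 within the other 4, and from -0.973 to -0.592 between the 2 sets. The 2 sets were drawn from the fraction calls on these same libraries, so the signs of r follow from that choice and are no separate result.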

How the data were processed

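RNA-seq was measured in 14 libraries of mouse cortex. The submitters' processing notes name DESeq2 without a version, HTSeq 0.6.1p1, TopHat2 2.0.11 and CASAVA, and the build GRCm38. The deposited values are a signal, namely the read count of a gene over the library's size factor (0.705 to 1.30): 100% of values were whole multiples of 1 read within 1e-06. Depth was 18226457 to 30316765 reads in genes. Of 32830 genes, 32007 were matched to GENCODE M21 by identifier.

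limma 3.58.1 (R 4.3.3, intensity trend, robust) was fitted to log2(value + 1) of genes with a value of 10 or more in at least 2 libraries (22575 genes), with 6 group means, both layers weighted equally between fractions and 8 residual degrees of freedom. P-values were Benjamini-Hochberg adjusted over all genes of a comparison, with a threshold of 0.05 for a call. Fold changes on this scale understate the change of low genes. Ratios were compared by exact permutation over libraries. The fit was run on simulated counts with 200 genes changed per comparison, a common relative spread for all genes and independent libraries. That setting is simpler than these data, so it checks only that the fit runs as meant.

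Alternatives were pseudocounts of 0.5 and 10, no filter, a filter at 50, library totals, TMM, edgeR 4.0.16 and DESeq2 1.42.0 on the recovered reads, only the groups compared, replicate blocks, and each library left out. Layer libraries with the same replicate number in the labels were alike: the deviations of upper and deep layer astrocyte libraries of the same number correlated at 0.203, 0.149 and 0.171. The same correlation was 0.436 in non-astrocytes and 0.0937 in bulk tissue. The main fit and the ratio tests used no pairing. Likeness to a member used genes with a mean of 100 or more that were neither members nor predicted genes, and the 3 with the highest Pearson r were named. Of the other lists, up to 6 called genes per direction with the largest difference were named in each comparison between fractions. The list counts leave out 1 gene that is not reported here. The members and lists were chosen with earlier results of these data known. RefSeq promoter windows were matched by symbol for 7 members and used for the 5 whose start lay within 100 bases of the GENCODE start.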

Additional observations from a re-analysis of the deposited data

How the results depend on the processing

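The 9 members gave 1773 values under the alternatives to the comparisons. Of these, 1757 kept their side of the threshold and, where called, their direction. Another 11 became called, 4 lost their call and 1 became called with its direction reversed. Changes of direction among values not called in either fit were not counted as reversed, and some occurred. An example is Glul in upper against deep layer astrocytes, with log2 differences from -0.02 to 0.37. The reversed value was Glul in non-astrocytes against bulk tissue, with a log2 difference of 0.32 under library totals, which also moved the median of all genes to 0.33 in that comparison, -0.26 for astrocytes against non-astrocytes and 0.08 for astrocytes against bulk tissue. Members called higher in non-astrocytes than in bulk tissue numbered 5 under library totals against 3, and 2 to 4 with 1 library left out. Slc1a1 became called there also at a pseudocount of 10, with edgeR, with DESeq2, with only the groups compared and in 5 of 14 fits without 1 library.

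With the replicate block within fraction, 1 member, Slc38a1, was called higher in upper than in deep layer astrocytes, against 0. Genes called there numbered 18, against 142 with DESeq2, 1 with only the groups compared, 89 with the replicate block, 188 with the block within fraction and 12 to 56 without 1 library. For upper against deep layer non-astrocytes the number was 1, against 4 at a pseudocount of 10, 13 with no filter, 7 with edgeR, 138 with DESeq2, 0 with only the groups compared, 3 with the block, 33 with it within fraction and 0 to 12 without 1 library. For bulk tissue it was 103, against 340 at a pseudocount of 10, 170 with edgeR, 428 with DESeq2, 1242 with only the groups compared, 168 with the block, 261 with it within fraction and 11 to 214 without 1 library. For the layer difference in astrocytes minus bulk tissue it was 31, against 112 at a pseudocount of 10, 50 with edgeR, 191 with DESeq2, 52 with the block, 112 with it within fraction and 0 to 72 without 1 library. For astrocytes minus non-astrocytes it was 1, against 0 with library totals, 61 with DESeq2, 0 with only the groups compared, 3 with the block, 4 with it within fraction and 0 to 2 without 1 library. The cause of these moves was not tested. The block changed no other call of a member.

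Without 1 library, genes called ran from 13438 to 15270 for astrocytes against non-astrocytes, from 13146 to 14883 for astrocytes against bulk tissue and from 12648 to 14680 for non-astrocytes against bulk tissue. The log2 difference in the ratio of Slc1a2 to Slc1a3 ran from 0.35 to 0.51 for astrocytes against non-astrocytes (exact permutation p from 0.0238 to 0.0833), from -1.15 to -0.99 for astrocytes against bulk tissue and from -0.56 to -0.35 for upper against deep layer astrocytes. Depth limits Slc38a5, Slc38a1 and Slc1a1 in astrocytes, where the values rest on few reads.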

Other observations

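Glutamate also feeds the synthesis of glutathione, and genes of that branch were not uniform. Slc7a11, which brings in cystine in exchange for glutamate, had 10535 ± 1362 normalised read counts in astrocytes (SD, n = 6), against 1948 ± 332 in non-astrocytes and 2028 ± 146 in bulk tissue (SD, n = 4 each). Gclm, the modifier subunit of glutamate-cysteine ligase, had 2293 ± 720 in astrocytes (SD, n = 6), against 737 ± 72.6 in non-astrocytes (SD, n = 4; log2 1.59, limma, adjusted p = 8.20e-07). Its catalytic partner Gclc had 721 ± 53.9 in astrocytes (SD, n = 6), against 727 ± 92.1 in non-astrocytes (SD, n = 4; log2 -0.01, limma, adjusted p = 0.968). The choice of these genes followed a look at their values.

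The aspartate aminotransferases, which pass nitrogen between glutamate and aspartate, were high in bulk tissue. Got1 had 1830 ± 275 normalised read counts in astrocytes (SD, n = 6), 971 ± 72.8 in non-astrocytes and 5862 ± 885 in bulk tissue (SD, n = 4 each). Got2 had 790 ± 210 in astrocytes (SD, n = 6), 1069 ± 246 in non-astrocytes and 3862 ± 539 in bulk tissue (SD, n = 4 each). Between astrocytes and non-astrocytes the pair went opposite ways, with Got1 at a log2 difference of 0.90 (limma, adjusted p = 7.43e-06) and Got2 at -0.45 (limma, adjusted p = 0.0217). They were also chosen after their values were seen.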
